A study of Mus musculus with 3 samples.

Results

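The expression of 10 genes of the piRNA pathway (Piwil1, Piwil2, Piwil4, Mael, Ddx4, Tdrd1, Tdrd5, Tdrd6, Tdrd9 and Asz1) was examined in mouse embryoid bodies that carry a mutation of Dido3 and in wild type embryoid bodies. They were found by the gene name given for each non-control spot of the array, which gave 10 of 30222 gene names and 12 of 39429 probes: 3 for Tdrd5 and 1 for each of the other genes. Embryoid bodies are clusters formed by embryonic stem cells as they leave self-renewal, and all samples were collected at day 10 of culture in suspension without the self-renewal factor LIF. The mutant group, Dido3deltaCT, makes a truncated form of Dido3, a chromatin-associated product of the Dido1 gene, that lacks the C terminus, and the other group is labelled wildtype control. Total RNA of 3 mutant and 3 wild type samples, called biological replicates, was hybridised on 3 two-colour Agilent arrays, each with 1 sample of either genotype. The mutant sample was labelled with Cy3 on the arrays of replicates 1 and 3, but with Cy5 on that of replicate 2. Strain, sex and number of stem cell lines are not given in the sources used here, so the p-values measure the spread between these samples, which may be technical, and effects of genotype and of the line cannot be told apart.

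PIWI-interacting RNAs (piRNAs) are small RNAs of the animal germ line that guide Argonaute proteins of the PIWI clade to transposon transcripts and transposon promoters. The proteins that make and load them gather in nuage, a perinuclear and mitochondria-associated germ granule, in which Tudor domain proteins bind methylated arginines of the PIWI proteins. In the mouse these genes are known for fetal and adult male germ cells, where their loss releases transposons and stops spermatogenesis. Many of them have CpG-rich promoters that are methylated and silent in somatic cells.

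The results turn on Mael, Ddx4, Piwil2 and Tdrd5, and the array sequences that read them are shown because a level on this platform is the signal of 1 such oligonucleotide. Positions are those of the scanner file headers (mm9), all on the minus strand. The Mael probe lies at chr1:168131583-168131642, the Ddx4 probe at chr13:113388616-113388675 and the Piwil2 probe at chr14:70772497-70772556. The first 2 Tdrd5 probes, A_55_P1965160 at chr1:158185508-158185567 and A_55_P2142575 at chr1:158185528-158185587, share the 40 bases in capitals, so they are not independent readings of the gene. The third Tdrd5 probe, A_55_P2272979, lies apart from them at chr1:158197156-158197214 and is annotated to another transcript accession. Exon and UTR annotation of this build was not used here. The sequences run 5′ to 3′.
Mael: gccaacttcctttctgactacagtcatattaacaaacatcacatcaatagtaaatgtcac
Ddx4: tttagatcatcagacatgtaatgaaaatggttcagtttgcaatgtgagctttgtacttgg
Piwil2: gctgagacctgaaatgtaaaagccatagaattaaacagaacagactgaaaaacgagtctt
Tdrd5, A_55_P1965160: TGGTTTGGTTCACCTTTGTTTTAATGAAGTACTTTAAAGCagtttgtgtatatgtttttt
Tdrd5, A_55_P2142575: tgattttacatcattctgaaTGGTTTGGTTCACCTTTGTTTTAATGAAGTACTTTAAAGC

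The replicate 2 array stood apart from the other 2. Over the 19142 probes tested, its log2 ratios of mutant over wild type correlated at 0.13 with replicate 1 and at 0.16 with replicate 3, while replicates 1 and 3 correlated at 0.87 (a description across probes, which share arrays). Replicate 2 is also the array with the dyes turned round, so its own biology and its dye orientation cannot be told apart. The share of non-control spots well above background was 46.5% to 62.5% for mutant samples and 48.5% to 74.4% for wild type samples. The targeted gene, Dido1, was read by 4 probes with mean log2 ratios of −1.92, 1.74, 1.12 and 1.36, of which none passed the test (adjusted p from 0.0593 to 0.123, limma), and the last was not well above background in any wild type sample (at least 2.17-fold higher in mutants, against the lowest signal that counts as well above background or the wild type signal itself where that was higher). Which of these probes lie in the truncated part was not established here, so they do not check the labels. Two-colour ratios were tested with limma, with Benjamini-Hochberg adjustment over all tested probes and a threshold of 0.05.

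Of the 12 piRNA pathway probes, 6 probes of 4 genes (Mael, Ddx4, Piwil2 and the 3 of Tdrd5) were bright enough to be tested, that is, all 3 samples of 1 genotype or of both were well above background. The other 6 genes, Piwil1, Piwil4, Tdrd1, Tdrd6, Tdrd9 and Asz1, were too dim. Mael, Ddx4 and Piwil2 had higher levels in every mutant sample than in any wild type sample, with means 4.06-fold to 8.42-fold higher, yet none of the 6 tested probes passed the adjusted threshold. The count of tested probes called was 0 higher and 0 lower, and over the whole array 0.392% of tested probes (75) were called higher and 0.225% (43) lower. At an unadjusted p under 0.05, 4 of the 6 tested probes were higher in mutants and 0 lower, where 10.6% of all tested probes were higher and 11.2% lower. With replicate 2 left out, all 6 tested probes were called higher, in a fit that called 4725 of 19187 probes higher and 4123 lower. Every mutant sample then carries Cy3, and genotype and dye cannot be told apart.

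**Figure D1:**
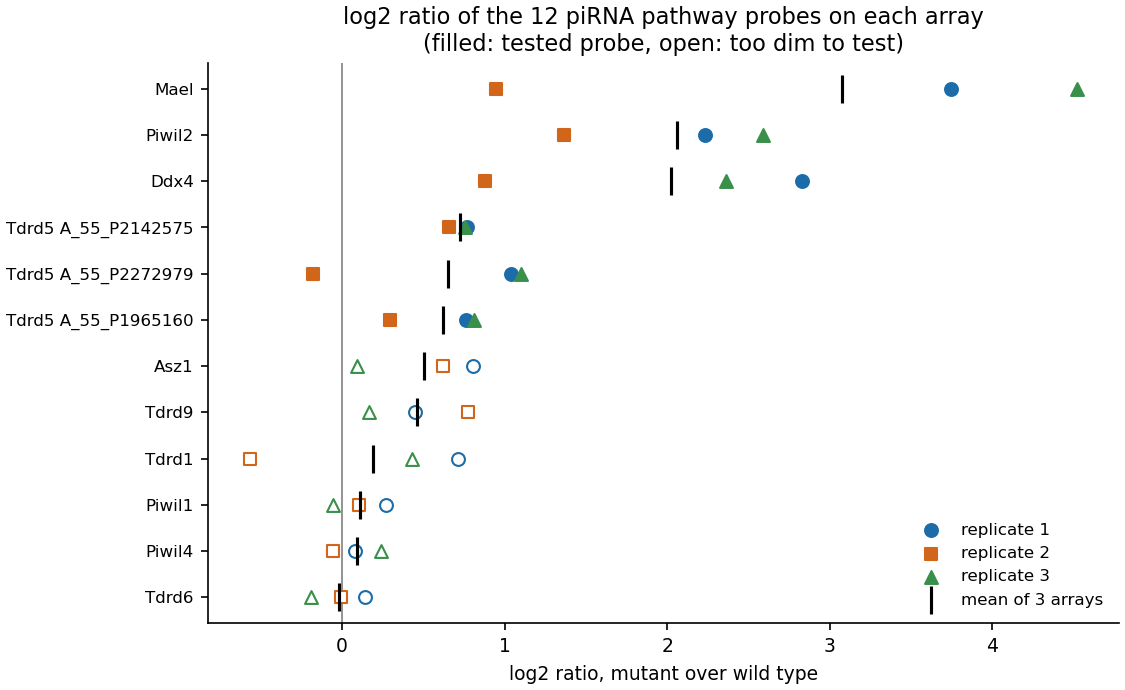
Log2 ratio of mutant over wild type (horizontal axis) for each of the 12 piRNA pathway probes (vertical axis) on each of the 3 arrays, with filled symbols for tested probes, open symbols for probes too dim to test and a black bar for the mean of the 3 arrays. Mael spans 0.95 to 4.53, Piwil2 spans 1.37 to 2.59 and Ddx4 0.88 to 2.83, and replicate 2 is the lowest symbol for every tested probe.

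Among the PIWI proteins themselves only Piwil2 was read above background. Piwil2 (MILI) is a small RNA-guided endonuclease present in fetal and adult male germ cells. Its level was 388.9, 403.1 and 537.9 intensity units in the mutant samples of replicates 1, 2 and 3, against 82.7, 156.3 and 89.4 in the wild type samples. The lowest mutant level lay above the highest wild type level, and replicate 2 held the highest wild type level. Because the wild type sample of replicate 3 was not well above background, the probe passed the filter through the mutant samples only. The log2 ratios were 2.23, 1.37 and 2.59, with a mean of 2.06 ± 0.63 (SD, n = 3), a 4.18-fold higher mean in mutants. The limma fit gave an SE of 0.32, a 95% confidence interval of 1.23 to 2.89 and an adjusted p of 0.0613, which did not pass the threshold. It was the 1 probe of the 12 with a log2 ratio of at least 1 on each array, which 2.67% of tested probes reached, and 0 probes of the 12 had a ratio of −1 or less on each, which 2.37% reached. Mael was just outside that threshold, at 0.95 on replicate 2. Without replicate 2 the Piwil2 mean was 2.41 (adjusted p = 0.00116), with a dye term it was 1.89 (adjusted p = 0.00290), and in a fit that ignored which samples shared an array it was 2.06 (adjusted p = 0.0427). Agilent's processed signals gave 3.53 (adjusted p = 0.0584), an offset of 10 gave 2.59 (adjusted p = 0.0535) and a background model with all spots 1.24 (adjusted p = 0.443), none of them a call.

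Piwil1 (MIWI), which binds piRNAs in meiotic and postmeiotic male germ cells, was not well above background in any of the 6 samples. Its probe, at chr5:129260319-129260378 on the plus strand of mm9, gave log2 ratios of 0.27, 0.11 and −0.053, a mean of 0.11 ± 0.16 (SD, n = 3). Piwil4 (MIWI2), the nuclear PIWI protein that directs DNA methylation of transposons in fetal germ cells, was likewise not well above background in any sample (probe at chr9:14506802-14506861, minus strand), with log2 ratios of 0.081, −0.056 and 0.24. No difference in Piwil1 or Piwil4 was detectable at this signal, and in both the mutant and wild type levels overlapped.

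Mael had the highest mean ratio among the 10 genes, except with Agilent's processed signals (3.18, against 3.53 for Piwil2). Mael (maelstrom) is a nuage protein required for transposon silencing in the mouse male germ line. Its level was 16106.5, 4891 and 12345 intensity units in the mutant samples of replicates 1, 2 and 3, against 1199, 2535 and 536.1 in the wild type samples. The groups did not overlap, and all 6 samples were well above background. Replicate 2 had both the lowest mutant and the highest wild type level. The log2 ratios were 3.75, 0.95 and 4.53, a mean of 3.07 ± 1.88 (SD, n = 3) and an 8.42-fold higher mean in mutants. This mean was higher than that of 99.8% of tested probes, yet the spread between arrays left an SE of 0.72, a 95% confidence interval of 1.24 to 4.90 and an adjusted p of 0.104 (limma). Without replicate 2 the mean was 4.14 (adjusted p = 0.000675), and with a dye term in the fit it was 2.54 (adjusted p = 0.00251).

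Ddx4 came close behind Piwil2 by mean ratio. Ddx4 (vasa) is a DEAD-box RNA helicase of nuage and a standard germ cell marker. Its level was 2465, 1697 and 938.9 intensity units in the mutant samples of replicates 1, 2 and 3, against 346.7, 923.1 and 182.9 in the wild type samples. The groups did not overlap, but the gap was narrow, between the mutant sample of replicate 3 and the wild type sample of replicate 2. The log2 ratios were 2.83, 0.88 and 2.36, a mean of 2.02 ± 1.02 (SD, n = 3), a 4.06-fold higher mean in mutants. The fit gave an SE of 0.43, a 95% confidence interval of 0.91 to 3.13 and an adjusted p of 0.0909 (limma), so the call was not made. The mean was 2.59 without replicate 2 (adjusted p = 0.00113) and 1.74 with a dye term (adjusted p = 0.00375), but 1.30 with all spots in the background model (adjusted p = 0.470).

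**Figure D2:**
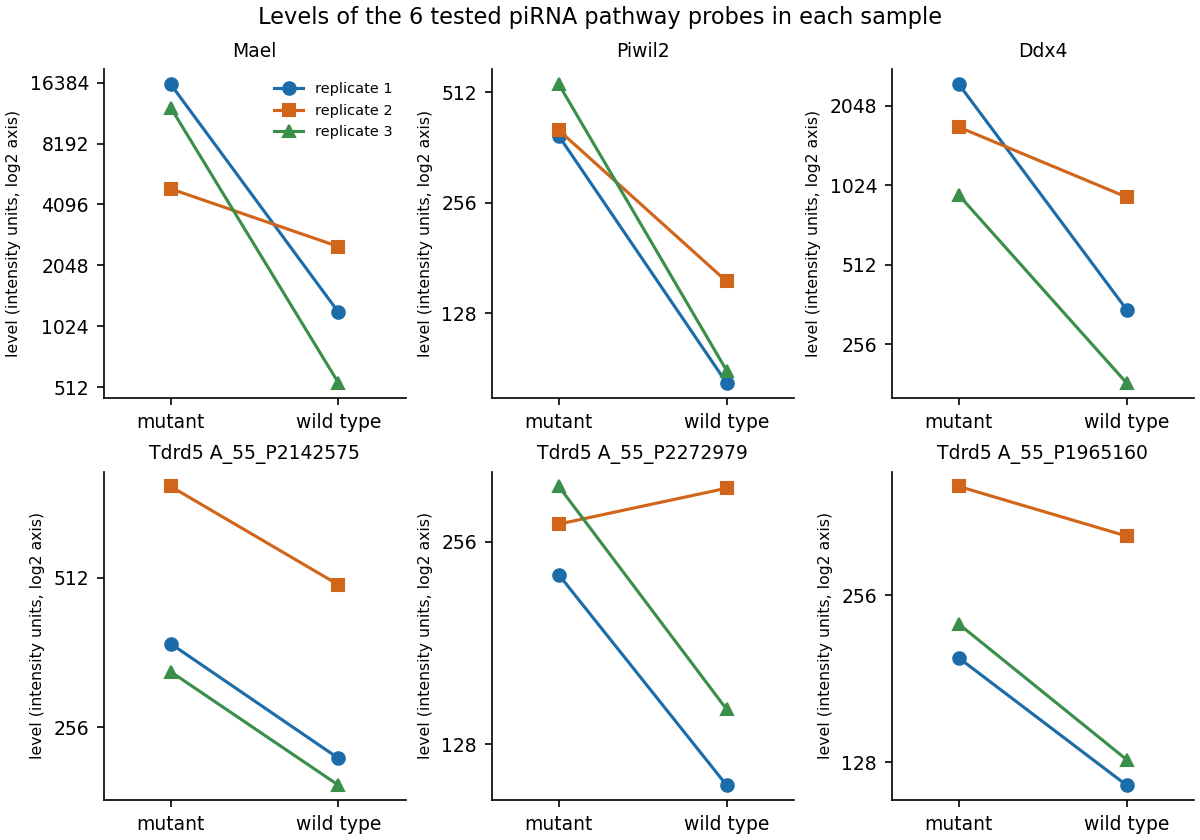
Levels of the 6 tested piRNA pathway probes (vertical axis, normalized intensity units on a log2 axis with its own range in each panel) in the mutant and wild type sample of each array, joined by array. Every line falls from mutant to wild type except replicate 2 of Tdrd5 A_55_P2272979, and the mutant and wild type samples overlap in the 3 Tdrd5 panels only.

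Of the 4 Tudor domain genes, only Tdrd5 could be tested. Tdrd5 encodes a Tudor and LOTUS domain protein of nuage needed for transposon silencing and spermiogenesis. Probe A_55_P2142575 gave 377.5, 782.4 and 331.6 intensity units in the mutant samples of replicates 1, 2 and 3, against 221.9, 496.0 and 195.9 in the wild type samples. The groups overlapped because both samples of replicate 2 were high, and within each array the mutant sample was the higher one. The log2 ratios of this probe were 0.77, 0.66 and 0.76, a mean of 0.73 ± 0.061 (SD, n = 3), with an SE of 0.23, a 95% confidence interval of 0.13 to 1.32 and an adjusted p of 0.170 (limma).

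The other 2 Tdrd5 probes spread more widely. Probe A_55_P1965160, which overlaps the first, gave 0.76, 0.30 and 0.81 on the log2 scale, a mean of 0.62 ± 0.28 (SD, n = 3) with an adjusted p of 0.241. Probe A_55_P2272979 gave 1.04, −0.18 and 1.10, a mean of 0.65 ± 0.72 with an adjusted p of 0.344, and on replicate 2 the mutant level (272.0 intensity units) was below the wild type level (307.4). The mutant and wild type levels of both probes overlapped. Without replicate 2 the means of the 3 probes were 0.76, 0.79 and 1.07, with adjusted p of 0.0202 for A_55_P2142575, 0.0184 for A_55_P1965160 and 0.00715 for A_55_P2272979 (limma). With a dye term only A_55_P2142575 was called, at 0.71 (adjusted p = 0.0249).

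Tdrd1, a scaffold that binds Piwil2 in intermitochondrial cement, was well above background in 1 mutant sample (replicate 1) and in no wild type sample. Its log2 ratios of 0.71, −0.57 and 0.43 had a mean of 0.19 ± 0.67 (SD, n = 3). Tdrd9, a Tudor domain helicase that acts with Piwil4 in fetal germ cells, was well above background only in the mutant sample of replicate 2, at 91.2, 106.4 and 93.3 intensity units in the mutants against 66.7, 62.2 and 83.3 in wild type. The Tdrd9 groups did not overlap, but 5 of its 6 values were at background. Tdrd6, a chromatoid body protein of late male germ cells, was not well above background in any sample and gave log2 ratios of 0.14, −0.0051 and −0.19. The probes lie on mm9 at chr19:56940470-56940951 (Tdrd1, plus strand, a span wider than the probe), chr12:113305826-113305885 (Tdrd9, plus strand) and chr17:43759143-43759202 (Tdrd6, minus strand).

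Asz1 (GASZ), an ankyrin repeat protein of the outer mitochondrial membrane that holds nuage components together, was well above background in the mutant samples of replicates 1 and 2 and in the wild type samples of replicates 1 and 3. Its probe spans chr6:18005508-18021991 of mm9 on the minus strand, far more than its own 60 bases. Its level was 149.7, 100.3 and 132.9 intensity units in the mutant samples of replicates 1, 2 and 3, against 85.5, 65.4 and 124.5 in the wild type samples. The groups overlapped, and the log2 ratios of 0.81, 0.62 and 0.09 had a mean of 0.51 ± 0.37 (SD, n = 3). In a fit that kept all dim probes, the 6 dim probes had adjusted p from 0.332 for Tdrd9 to 0.976 for Tdrd6 (limma).

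Over all 12 probes the median of the mean log2 ratios was 0.57, against 0.01 over all 39084 probes measured on every array. The median of the 12 ratios was 0.76, 0.46 and 0.59 on replicates 1, 2 and 3. All 3 mutant levels lay above all 3 wild type levels for 4 probes (Mael, Ddx4, Piwil2 and Tdrd9), 3 of them among the 6 tested, where 10.3% of all tested probes did so. The log2 ratio was above 0 on all 3 arrays for 7 of the 12 probes and below 0 on all 3 for 0. Over all probes 18.1% were above 0 on all 3 and 17.9% below. Replicate 2 had the lowest ratio for 8 of the 12 probes and for 6 of the 6 tested. How often it was lowest over all probes was not counted. Its ratios correlated at only 0.13 and 0.16 with the other arrays over all tested probes, so a trait of these genes is not shown. In the authors' deposited table the ratios of replicates 1, 2 and 3 were 5.96, 0.91 and 3.27 for Mael, 1.41, 0.71 and 2.01 for Ddx4 and 1.46, 0.91 and 1.47 for Piwil2. Its columns for replicates 1 and 3 each tracked the other replicate's scanner file more closely. In whole embryoid bodies a change in the share of cells that express a gene and a change in RNA per cell cannot be told apart.

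The promoters of these genes were read from the RefSeq table of assembly GRCm38.p6, which gives 250 bases before to 50 after each start. It held 11 promoters of 8 of the 10 genes and none for Piwil2 and Tdrd6. Those of Mael, at chr1:166238695-166238994, and Ddx4, at chr13:112652261-112652560, both on the minus strand, are shown because these genes had the highest mean ratios among those with an entry, a choice made after their values were seen. Capitals mark CACGTG, the E-box bound by factors such as Max and Mga, and TCCCGC, a core letter string of E2F sites, which reads GCGGGA on the other strand. The strings were searched on both strands and do not overlap each other.
Mael promoter: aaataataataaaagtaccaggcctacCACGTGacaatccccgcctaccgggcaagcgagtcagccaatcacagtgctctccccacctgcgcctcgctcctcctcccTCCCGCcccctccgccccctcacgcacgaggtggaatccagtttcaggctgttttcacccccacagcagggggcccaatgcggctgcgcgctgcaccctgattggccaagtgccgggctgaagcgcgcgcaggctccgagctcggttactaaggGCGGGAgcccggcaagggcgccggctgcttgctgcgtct
Ddx4 promoter: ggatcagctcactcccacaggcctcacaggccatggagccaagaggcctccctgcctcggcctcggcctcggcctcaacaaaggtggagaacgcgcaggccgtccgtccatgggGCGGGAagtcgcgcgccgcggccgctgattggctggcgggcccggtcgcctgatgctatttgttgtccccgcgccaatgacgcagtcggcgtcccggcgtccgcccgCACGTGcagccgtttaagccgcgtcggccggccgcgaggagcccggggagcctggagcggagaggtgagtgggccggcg

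The Mael promoter held 1 CACGTG, 2 TCCCGC and 24 CG dinucleotides, more CG than 80.0% of the promoters in the table. The Ddx4 promoter held 1 CACGTG, 1 TCCCGC and 38 CG dinucleotides, more than 95.1% of them. Of the 11 promoters, 6 of 5 genes (Mael, Ddx4, Piwil1, Tdrd1 and Tdrd9) held CACGTG, against 7.15% of 32851 promoters of the same length, and 3 of 3 genes (Mael, Ddx4 and Tdrd5) held TCCCGC, against 20% of them. Tdrd1 has 3 entries, of which 2 overlap and hold the same CACGTG. Between 0 and 48 CG dinucleotides were counted in the 11 promoters, 9 of which lay above the table's median of 7. CACGTG and TCCCGC each contain a CG, and the shares over the table were not matched for CG content. Piwil1, Tdrd1 and Tdrd9, which share the E-box string with Mael and Ddx4, were at or near background in these samples. These matches describe letters in a window and no binding was measured.

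Another 24 genes of the pathway were examined, of which 23 had a probe, 31 probes in all, 20 of them tested. None was called higher or lower, and at an unadjusted p under 0.05, 12 of the 20 were higher in mutants and 1 lower, where 10.6% of tested probes were higher and 11.2% lower. The median of the mean log2 ratios was 0.56 over the 30 probes measured on every array. Of the 31 probes, 18 were above 0 on all 3 arrays and 3 below, where 18.1% of all probes were above and 17.9% below. A log2 ratio of at least 1 on each array was reached by 4 probes, all of them tested, where 2.67% of all tested probes reached it.

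The highest mean in this group was that of Dnmt3l, the cofactor of de novo DNA methyltransferases in fetal male germ cells, with log2 ratios of 1.29, 2.29 and 3.04 (mean 2.21, adjusted p = 0.0699, limma). Its level was 14548, 15452 and 20618 intensity units in the mutant samples of replicates 1, 2 and 3, against 5969, 3149 and 2501 in the wild type samples. The groups did not overlap, and unlike for Mael the lowest ratio was on replicate 1. Morc1, an ATPase of transposon silencing in male germ cells, gave 2.61, 0.71 and 3.18 (mean 2.16, adjusted p = 0.110), with replicate 2 lowest as for Mael and Ddx4. Fkbp6, a co-chaperone of piRNA loading, was read by 2 probes, with means of 2.09 on A_55_P2185143 (adjusted p = 0.0768) and 2.09 on A_55_P1952385 (adjusted p = 0.0559).

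Gpat2, a mitochondrial outer membrane partner of Piwil2, gave log2 ratios of 1.04, 2.13 and 2.19 (mean 1.79, adjusted p = 0.0734). Tdrd12, a Tudor domain protein of secondary piRNA production, gave 0.91, 1.07 and 2.28 (mean 1.42, adjusted p = 0.116). Gtsf1, a zinc finger partner of the PIWI proteins, gave 0.92, 2.21 and 1.03 (mean 1.38, adjusted p = 0.116). For these 3 genes replicate 2 was not the lowest array, whereas it was for Mael, Ddx4 and Piwil2.

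**Figure D3:**
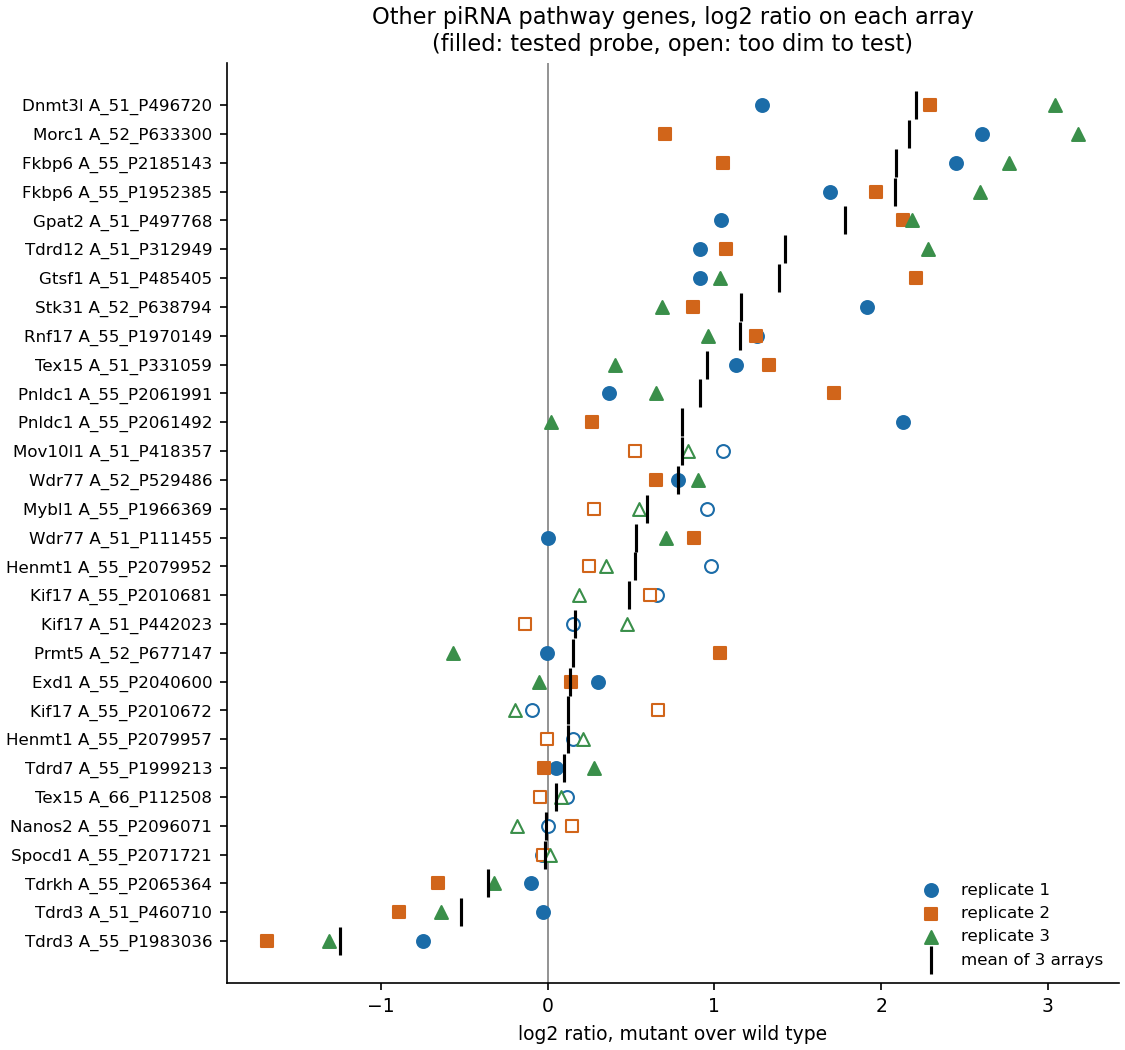
Log2 ratio of mutant over wild type (horizontal axis) on each array for the 30 probes of other piRNA pathway genes that were measured on all 3 arrays (vertical axis, ordered by mean), with filled symbols for tested probes, open symbols for dim ones and a black bar for the mean. Dnmt3l, Morc1, Fkbp6 and Gpat2 have the highest means, from 1.79 to 2.21, and Tdrd3 has the lowest.

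Argonaute proteins of the other clade and the miRNA machinery were set beside them, since they are the small RNA system of somatic cells. Of the 14 genes (18 probes, 14 tested) none was called. At an unadjusted p under 0.05, 1 tested probe was higher in mutants and 3 lower, where 10.6% of all tested probes were higher and 11.2% lower. The median of their mean log2 ratios was −0.11, and its sign was not stable: it was −0.48 without replicate 2, −0.45 with median centring, 0.03 without replicate 3 and 0.01 with a dye term. The furthest tested means were those of Ago4 (−1.15), Prkra (−1.10), Tnrc6a (−0.86), Mov10 (0.82), Drosha (0.74) and Xpo5 (0.63). Mov10, an RNA helicase related to the piRNA factor Mov10l1, had an adjusted p of 0.150 (limma).

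Genes that silence germ line promoters outside the germ line (16 genes, 21 probes, 18 tested) had a median mean log2 ratio of 0.49 and no call. That median was 0.30, 0.22 and 0.35 without replicate 1, 2 and 3, and 0.21 with median centring. Of the 18 tested probes, 3 were higher and 0 lower at an unadjusted p under 0.05, where 10.6% of all tested probes were higher and 11.2% lower. The 3 higher ones were all probes of Dnmt3b, a de novo DNA methyltransferase, the furthest with a mean of 2.07 (adjusted p = 0.0573, limma). The next were Ehmt2 (−0.67), Pcgf6 (0.63), Setdb1 (0.62), Mga (0.62) and Ehmt1 (0.60).

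Markers of cell types that embryoid bodies can hold were read on the same arrays. Of 13 germ cell marker probes, all of them tested, 0 were called. At an unadjusted p under 0.05, 7 were higher in mutants and 2 lower, where 10.6% of all tested probes were higher and 11.2% lower. Dppa3 gave log2 ratios of 4.26, 0.80 and 5.21 (mean 3.43, adjusted p = 0.118) and Dazl 3.49, 0.42 and 2.79 (mean 2.23, adjusted p = 0.136), with replicate 2 lowest as for Mael and Ddx4. Prdm14 had a mean of 2.04 (adjusted p = 0.0558), Zbtb16 of −2.60 (adjusted p = 0.0961) and Kit of −1.92 (adjusted p = 0.0734, limma). Sycp3 was read by 2 probes, with means of 2.07 (3.25, −1.27 and 4.23, adjusted p = 0.336) and 1.56 (2.06, 0.13 and 2.51, adjusted p = 0.174). The means nearest 0 were those of Dnd1 (0.0002, adjusted p = 0.9999), Nanos3 (−0.03, adjusted p = 0.968) and Prdm1 (0.50, adjusted p = 0.348). The summed level of the 13 germ cell probes was 24026 to 37114 intensity units in mutant samples and 12425 to 20445 in wild type samples. The sum, which mixes markers that were higher and lower in mutants, was 1.82-fold, 1.21-fold and 2.65-fold higher in mutants on replicates 1, 2 and 3. None of these markers was at background in every sample.

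All 5 pluripotent cell probes and the 6 endoderm probes measured on every array were well above background in every sample. Of the 5 pluripotent cell markers, Zfp42 (3.17 ± 0.26, SE) and Dppa5a (2.67 ± 0.24, SE) were called higher in mutants, each with an adjusted p of 0.0413 (limma). Pou5f1 (mean 1.99, adjusted p = 0.0573), Sox2 (1.05, adjusted p = 0.108) and Nanog (0.08, adjusted p = 0.887) were not called. The summed level of the 5 was 117406 to 292815 intensity units in mutant samples and 18800 to 49243 in wild type samples. Most of that sum was Dppa5a, at 87696 to 220272 in mutants and 13418 to 35258 in wild type. Of the endoderm markers Afp was called lower (−2.23, adjusted p = 0.04997), with summed levels over the 6 endoderm probes measured on every array of 5501 to 42523 in mutants and 39752 to 160721 in wild type, ranges that overlap. The embryonic globin Hbb-bh1 (−3.91, adjusted p = 0.0413) and the Y-linked genes Ddx3y (−4.56, adjusted p = 0.0410) and Eif2s3y (−6.17, adjusted p = 0.0404) were called lower too. Ddx3y was not well above background in any mutant sample, so its level there was at least 21.2-fold lower. The other Y-linked genes read, Uty (2 probes) and Kdm5d, and the 2 probes of Xist were too dim to test, and Xist was not well above background in any sample. Mesoderm and blood markers (6 probes) had summed levels of 1569 to 2954 in mutants and 6796 to 10628 in wild type. Most of the wild type sum was Hbb-bh1, at 4054 to 6860 in wild type and 263.3 to 745.6 in mutants. The other tested means of that list were −1.69 for Myl7, −0.66 for Hand1, −0.05 for T and 0.19 for Pecam1, none of them a call. Neural markers (6 probes) had summed levels of 1666 to 3732 in mutants and 1953 to 19117 in wild type, with no call. The part of cell makeup or of the difference in Ddx3y and Eif2s3y in the piRNA pathway ratios was not tested.

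**Figure D4:**
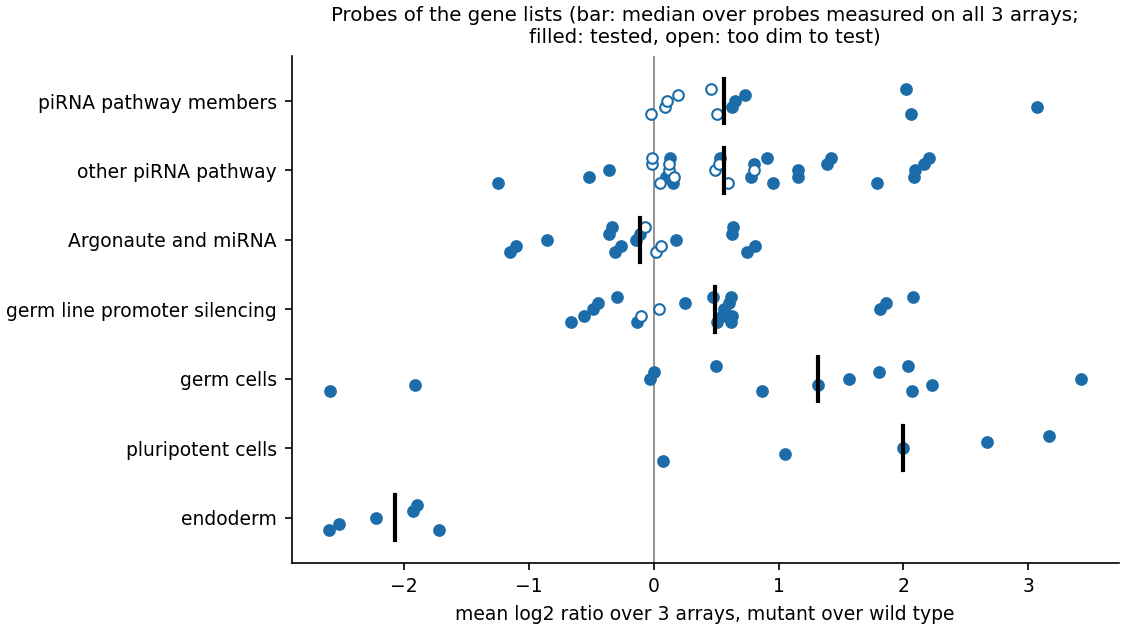
Mean log2 ratio of mutant over wild type over 3 arrays (horizontal axis) of each probe in 7 gene lists (vertical axis), with filled circles for tested probes, open circles for probes too dim to test and a black bar at the median of the probes measured on all 3 arrays. The medians are 0.57 for the 10 piRNA pathway genes, 0.56 for other piRNA pathway genes, −0.11 for Argonaute and miRNA genes, 0.49 for silencing genes, 1.32 for germ cell, 1.99 for pluripotent cell and −2.08 for endoderm markers.

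The probes whose levels ran most like the mean of the 6 tested piRNA pathway probes over the 6 samples, by Euclidean distance of centred log2 levels among 15043 candidate probes, were those of Sult6b1 (distance 0.44), 4930427A07Rik (0.45), Pdk4 (0.47), Ica1 (0.49) and Ush1c (0.49). Sult6b1 had log2 ratios of 1.53, 0.49 and 2.42. Ush1c had 2.23, 1.17 and 2.22. Candidates had to be well above background in all 3 mutant samples. Each of the 5 was lowest on replicate 2, as were all 6 piRNA pathway probes behind the mean. This likeness follows from how the 5 were chosen and is not a separate finding. None of the 5 passed the test (adjusted p from 0.0667 to 0.146, limma).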

How the data were processed

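The members and gene lists were chosen with earlier results of these data known. Agilent Feature Extraction 10.7.3.1 wrote the deposited scanner files, per the file headers, with mean and median local background intensity per spot and dye, not normalized, processed intensity, and other columns that flag spots. Their log10 ratios of Cy5 over Cy3 processed signal, per the file headers, were not used further. The authors' deposited table holds log2 ratios, mutant over wild type when set against the scanner values, with column medians of −0.04, 0.01 and −0.01, so its exact centring stays unknown, and so does which replicate its outer columns hold. Its column for replicate 1 correlated more with the scanner file of replicate 3 (0.915) than with its own (0.771), which leaves means unaffected. The submitters' processing notes name limma, with the version not given in the sources used here.

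Intensities were corrected with normexp (offset 50; 7 extreme background spots of replicate 3 kept out of the model), normalized by loess within arrays (weight 0 for 1377 control spots) and turned to mutant over wild type with limma 3.58.1 in R 4.3.3. Outlier spots (317, 364 and 438 on the 3 arrays) were left out and spots of a probe averaged. Levels are channel values after loess and Aquantile, open to dye bias because the dyes were not swapped equally. Probes measured on all 3 arrays and well above background on all 3 in at least 1 genotype were tested with lmFit and eBayes (2 residual and 3.13 prior degrees of freedom), two-sided, with each array as a pair. Replicate numbers pair the samples because both share an array. Signal over background and the number of arrays limit the precision. All 3 arrays lie on 1 slide, so no batch could be tested.

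All 10 genes were to be named, with each called probe and up to 6 further genes of each other list of the pathway and of germ cells, and the 5 probes most like the members. Of the remaining marker lists only called probes and summed levels are given. Symbols follow GRCm38.p6 RefSeq for 26761 probes (67.9%) and the file otherwise. On simulated arrays of 19142 probes with 200 changed, 11% of changes of 2 and 94% of changes of 4 (log2) were recovered, with 3 false calls. The alternatives were another background model, Agilent's processed signals, median centring, scaling between arrays, 2 other filters, 1 probe per gene, a dye term, the deposited ratios, unpaired channels, another offset and each replicate left out.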

Additional observations from a re-analysis of the deposited data

How the results depend on the processing

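Of 165 repeats over the 12 piRNA pathway probes, 150 kept the main outcome (a tested probe: still not called, a dim probe: its value within 1 SD). Another 11 became calls, and 4 moved by over 1 SD: with Agilent's processed signals Tdrd9 (0.93), Asz1 (1.21) and Tdrd1 (0.97), and with an offset of 10 Tdrd9 (0.94). None of the 12 was called in the main fit, so no call could change sign. The near-0 means of 2 dim genes did change sign: Tdrd1 was −0.07 without replicate 1, and Tdrd6 was 0.04 with all spots in the background model, 0.05 with median centring and 0.07 without replicate 3. The calls over all tested probes (75 higher, 43 lower) became 0 and 0 with all spots in the background model (1956 at an unadjusted p under 0.05 in limma), 0 and 0 without a filter on dim probes (6302), 0 and 0 from the authors' deposited table (3701), 3 and 1 with probes well above background in both genotypes, 283 and 205 with Agilent's processed signals, 140 and 95 with an offset of 10, 184 and 101 with unpaired channels (no replicate block) and 2820 and 2826 with a dye term. Median centring gave 40 higher calls, 50% of its calls against 63.6% of the calls with loess. Leaving out 1 replicate gave 3 to 4725 higher and 2 to 4123 lower, the most without replicate 2 (without replicate 1, 3 and 2; without replicate 3, 13 and 12). Of the 6 tested piRNA pathway probes, 4 were called higher with a dye term, 1 with unpaired channels and 0 to 6 with 1 replicate left out, the 6 without replicate 2. With a dye term Piwil2 was 1.89 (adjusted p = 0.00290). With a dye term or without replicate 2, the residual error comes from replicates 1 and 3 alone. The adjusted p ranged over the alternatives from 0.000675 to 0.342 for Mael, 0.00113 to 0.470 for Ddx4 and 0.00116 to 0.443 for Piwil2. The median of the 12 probes was 0.57, and 0.39 with all spots in the background model, 1.02 with Agilent's signals, 0.30 from the deposited table and 0.83 with an offset of 10. That of other pathway genes (0.56) was 0.92 with Agilent's signals and 0.30 from the deposited table. For the 6 dim genes, levels near background limit what can be seen.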
